A study of Rattus norvegicus with 12 samples.

Results

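Messenger RNA of the kidney cortex was compared between rats heterozygous for a mutation of Xdh (HET) and their wild-type littermates (WT). All 4 HET and all 4 WT libraries of the 12 in the study were taken by the genotype in their labels, and the homozygous libraries were left out of the main comparison. Of 32623 genes in the count table, 21159 had a read in any of the 8 libraries and 14648 passed the filter on low counts and were tested. Every rat was a male of 6 weeks of the SS-Xdhem1Mcwi strain, a line that by rat nomenclature carries an engineered Xdh mutation on the Dahl salt-sensitive (SS) background. The WT libraries therefore share that background with the HET libraries. No treatment is labelled. The WT libraries are numbered 1 to 4 and the HET libraries 1, 2, 4 and 5. Whether every library is a separate animal is not labelled, so p-values describe only how these samples differ, and that spread can be technical.

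Xanthine dehydrogenase oxidises hypoxanthine to xanthine and xanthine to uric acid, the last steps of purine breakdown. In rats, uric acid is degraded further by the liver enzyme uricase, and the kidney handles it through transporters of the proximal tubule. The proximal tubule begins in the cortex as a convoluted segment and continues as a straight segment toward the outer medulla, where the thick ascending limb also runs. Both run through the medullary rays of the cortex as well as through the medulla.

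Total counts per library ran from 28481944 to 36119168 in WT and from 18995464 to 37023629 in HET. Transcripts of the mitochondrial genome took 14.4% to 17.0% of counts in WT and 12.9% to 18.6% in HET. Levels are given below as CPM, which are counts divided by the library total in units of 1e+06 reads, and scaled by composition factors, and log2 fold changes are HET over WT with their standard error. Across genes, not themselves independent, the correlation of log2 CPM was 0.972 to 0.991 for pairs of libraries of 1 genotype and 0.972 to 0.990 for pairs of different genotype. The library HET 1 stood apart by genes of fat, WT 4 and HET 1 by genes of blood, and WT 2 by very low levels of straight proximal tubule genes.

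The fit called no difference between the cortex of heterozygous rats and that of wild-type rats. Xdh itself, at 59.3% of the WT mean, was not called either, so the lack of calls does not show that the genotypes are alike. No gene was called at an edgeR adjusted p of 0.05 (0 of 14648, 0%) or of 0.1, and the smallest adjusted p was 0.999. At an unadjusted p of 0.05, 273 genes (1.86%) passed, 145 with HET higher (0.99%) and 128 with HET lower (0.874%). The share of 1.86% lies below the fraction of 0.05 that this level gives where no gene differs, so these genes are no excess. DESeq2 called 1 gene and limma voom 0, with 373 and 293 genes at an unadjusted p of 0.05. The median log2 fold change over all tested genes was 0.00046, and the 5th and 95th percentiles were -0.30 and 0.29. An absolute log2 fold change over 1 was seen for 83 genes, of which 21 had an unadjusted p under 0.05. Every HET library lay above every WT library for 120 genes (0.819%) and below for 101 (0.69%), so the genotypes did not overlap for 221 genes (1.51%). Without HET 1 no gene was called and 456 genes passed the unadjusted level, and without WT 2 no gene was called and 633 passed it. The authors' deposited table for these groups calls 1 of 12759 genes (0.00784%).

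Xdh itself (ENSRNOG00000007081; chromosome 6, listed start 25149235, build Rnor_6.0) was lower in the heterozygous libraries. Its level was 242, 328, 185 and 234 CPM in WT 1 to 4, and 157, 170.1, 122 and 138 CPM in HET 1, 2, 4 and 5. All HET values were under all WT values, with WT 2 highest and HET 4 lowest. The means were 247 ± 59.5 CPM in WT and 147 ± 21.0 CPM in HET (SD, n = 4 each), which puts HET at 59.3% of WT. The log2 fold change was -0.75 ± 0.17, the third smallest unadjusted p of the table (0.00150), and it was not called over all genes (edgeR adjusted p = 0.999). The exact two-sided permutation test over all 70 arrangements gave p = 0.0286, the smallest possible with these group sizes. DESeq2 gave an adjusted p of 0.05833. The authors' deposited table lists Xdh at a log2 fold change of -0.753 with a false discovery rate of 0.0970. The fold change ran from -0.869 to -0.586 when single libraries were left out. The deposited values do not separate transcripts of the mutated allele from those of the other.

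**Figure D1:**
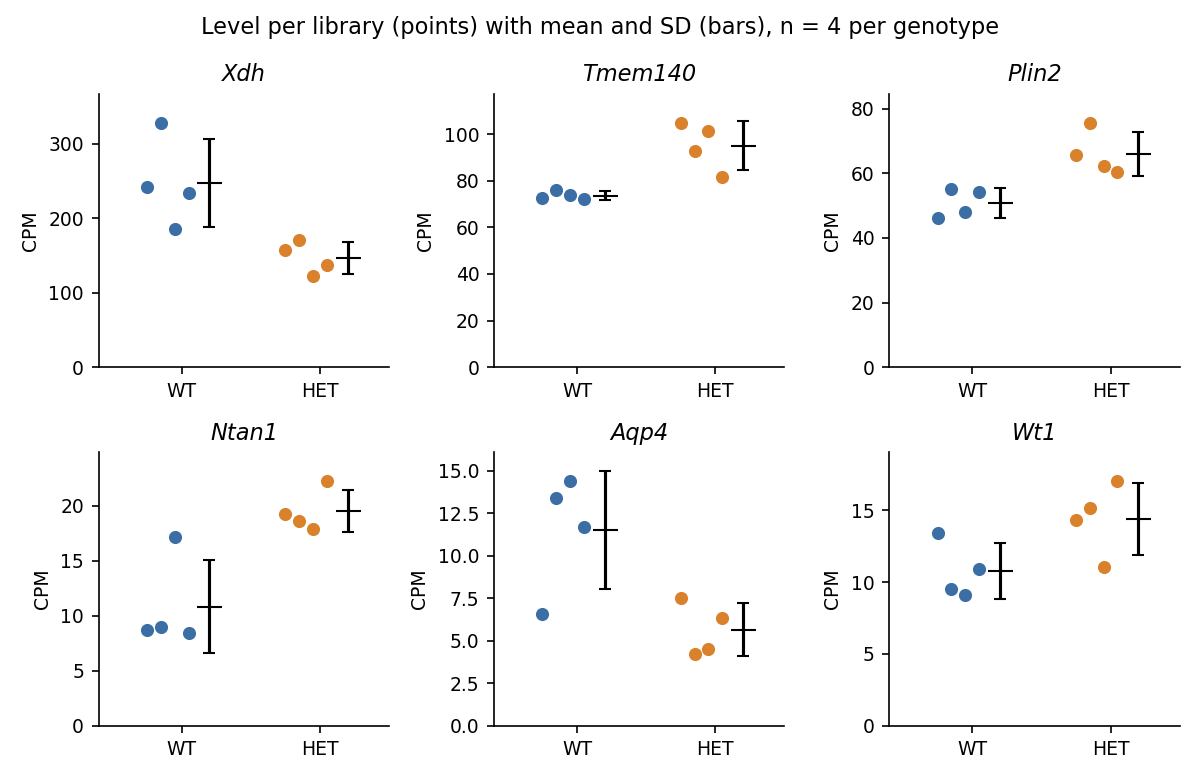
Level in CPM (vertical axis) of 6 genes in each WT (blue) and HET (orange) library, with black bars for the mean and SD of 4 libraries. The HET points lie below all WT points for Xdh and above all WT points for Tmem140, Plin2 and Ntan1, while Aqp4 and Wt1 overlap.

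The chromosomal neighbourhood of Xdh showed no such difference. Of 43 tested genes listed within 2 Mb of the start of Xdh, 0 were called and 0 had an unadjusted p under 0.05, and DESeq2 and limma voom called none of them either. The smallest unadjusted p among them was 0.0554, for the tubulin deglutamylase gene Agbl5, and their median log2 fold change was 0.0045. Of the genes in that window, the endocytic regulator Ehd3 stood at 54.2, 37.7, 33.8 and 37.4 CPM in WT and at 50.004, 40.1, 30.4 and 53.5 CPM in HET 1, 2, 4 and 5. The glycosyltransferase Galnt14 stood at 60.9 to 72.2 CPM in WT and at 60.5 to 74.4 CPM in HET. The genotypes overlapped for both genes.

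Among the 20 genes named by their unadjusted p, 10 in each direction, none was called, and they are given as values. The protein product of Plin2 coats lipid droplets. Plin2 stood at 46.0, 55.1, 47.9 and 54.2 CPM in WT and at 65.6, 75.6, 62.1 and 60.4 CPM in HET 1, 2, 4 and 5. Every HET value lay above every WT value, at a log2 fold change of 0.38 ± 0.09 (unadjusted p = 0.00177). Its highest values were in HET 2 and HET 1, the libraries with the highest levels of Pck1 described with the fasting genes, and the part of that difference was not tested. Tmem140, which encodes a membrane protein, had the smallest p of the table (unadjusted p = 9.41e-04). It stood at 72.1 to 76.1 CPM in the WT libraries and at 104.9, 92.6, 101.4 and 81.6 CPM in HET 1, 2, 4 and 5. The WT values were narrowly spread and HET 5 came nearest to them, at a log2 fold change of 0.37 ± 0.08.

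A pair of neighbouring genes on chromosome 10 stood among the higher genes. Ntan1 (listed from position 3218466) encodes an amidase that deamidates N-terminal asparagine and so feeds proteins to degradation. It stood at 8.71, 8.96, 17.1 and 8.41 CPM in WT and at 19.3, 18.6, 17.9 and 22.2 CPM in HET 1, 2, 4 and 5. WT 3 lay next to the HET values and far from the other WT libraries. The log2 fold change was 0.85 ± 0.23 (unadjusted p = 0.00430, edgeR adjusted p = 0.999). Without WT 3 it was 1.17 and was called, with an edgeR adjusted p of 0.0115. Mpv17l (listed from position 3321476), which encodes a membrane protein related to Mpv17, stood at 37.9, 27.3, 34.8 and 26.1 CPM in WT and at 48.5, 46.1, 43.3 and 42.9 CPM in HET 1, 2, 4 and 5. The groups did not overlap, at a log2 fold change of 0.52 ± 0.12. The genes within 2 Mb of Ntan1 were looked at after the values of this pair were seen. Of 23 other tested genes there, 2 had an unadjusted p under 0.05, against 1.86% of all tested genes. RGD1305733 was at 0.42 and Snn, which encodes stannin, at -0.30 on the log2 fold change scale. Pdxdc1 and Rrn3, in the same window, were at -0.07 ± 0.10 and 0.06 ± 0.09.

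The other genes named with HET higher differed by less than 1 on the log2 fold change scale. The heparan sulphate sulphotransferase gene Hs3st6 stood at 2.81 to 3.36 CPM in WT and at 4.18 to 5.07 CPM in HET (0.55 ± 0.14). The DNA glycosylase gene Neil1, of base excision repair, stood at 18.0 to 18.9 CPM in WT and at 20.7 to 25.4 CPM in HET (0.28 ± 0.08). The costimulatory receptor gene Tnfrsf9 ranged from 5.85 to 7.83 CPM in WT and from 7.99 to 11.6 CPM in HET (0.48 ± 0.14). The zinc finger genes Zfp276 and Zc3h12c also had every HET value above every WT value, at log2 fold changes of 0.28 ± 0.08 and 0.40 ± 0.12. Tdrd5, a tudor domain gene known from the germline, overlapped: WT 1 had 11.9 CPM against 7.99 to 8.30 in the other WT libraries, and HET 1 had 9.51 CPM against 16.6 to 24.6 in the other HET libraries (0.90 ± 0.27).

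Among genes with HET lower, the salt-inducible kinase gene Sik1 stood at 12.4, 19.8, 14.5 and 13.0 CPM in WT and at 9.46, 7.85, 6.24 and 11.6 CPM in HET 1, 2, 4 and 5. The groups did not overlap, with HET 5 and WT 1 next to each other (log2 fold change -0.77 ± 0.20, unadjusted p = 0.00384). The water channel gene Aqp4, of the basolateral membrane of collecting duct cells, stood at 6.55, 13.4, 14.4 and 11.7 CPM in WT and at 7.50, 4.2, 4.49 and 6.35 CPM in HET 1, 2, 4 and 5. WT 1 lay within the HET range, and the log2 fold change was -1.02 ± 0.27 (unadjusted p = 0.00407). The transferrin receptor gene Tfrc, which takes up iron, stood at 72.4, 106, 102 and 95.2 CPM in WT and at 67.1, 81.6, 58.4 and 71.3 CPM in HET 1, 2, 4 and 5. WT 1 again lay within the HET range (-0.43 ± 0.13).

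The remaining lower genes were Spon1, Kcnj2, Tmem267, Fam118a, Tmsb4x and Gpm6a. Spon1, which encodes the matrix protein F-spondin, stood at 53.6 to 64.7 CPM in WT and at 44.2 to 50.4 CPM in HET (-0.26 ± 0.08). Tmsb4x, which encodes the actin-sequestering thymosin beta 4, stood at 413 to 469 CPM in WT and at 367 to 408 CPM in HET (-0.23 ± 0.08). The inward rectifier potassium channel gene Kcnj2 (-0.76 ± 0.24) and the membrane glycoprotein gene Gpm6a (-0.43 ± 0.14) overlapped between genotypes. Tmem267 (-0.38 ± 0.12) and Fam118a (-0.58 ± 0.19) did not overlap.

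**Figure D2:**
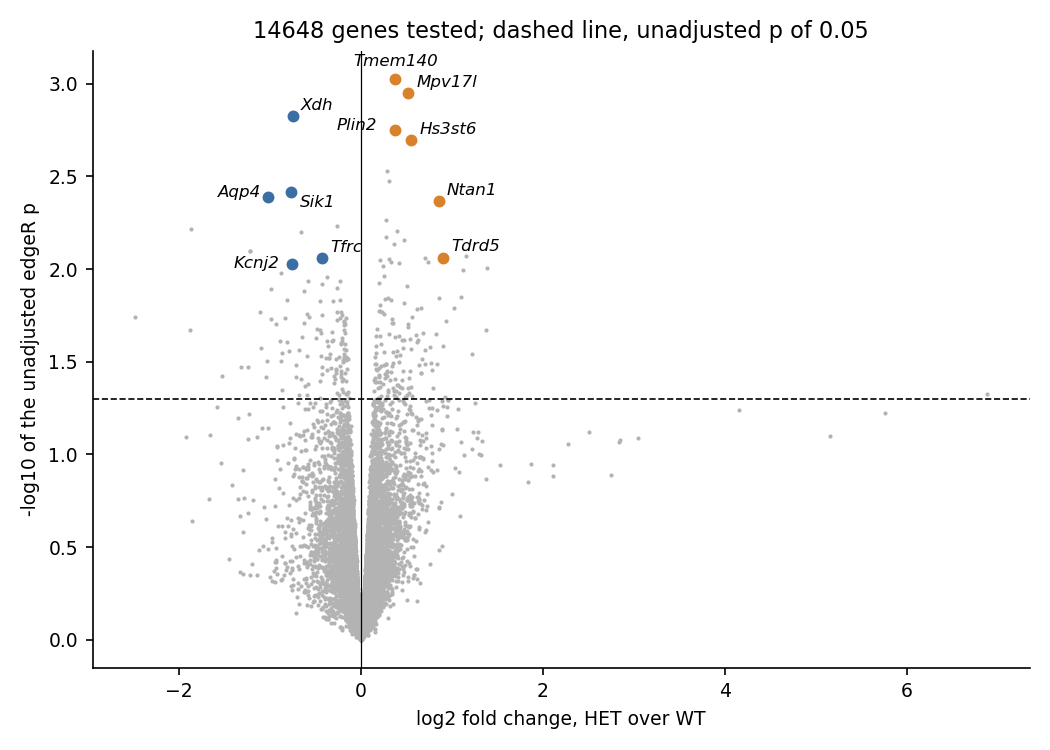
Log2 fold change of HET over WT (horizontal axis) against -log10 of the unadjusted edgeR p (vertical axis) for the 14648 tested genes, with the dashed line at an unadjusted p of 0.05. Xdh lies at -0.75 among the smallest p-values, and no gene was called after adjustment.

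The single gene called in the authors' deposited table was LOC100909505 (log2 fold change 7.15, false discovery rate 4.76e-08 there). Its raw counts were 1, 0, 1 and 1 in WT 1 to 4 and 182, 144, 0 and 107 in HET 1, 2, 4 and 5. It was high in 3 HET libraries and at 0 in HET 4, and it did not pass the low-count filter. Over the summed counts the ratio of HET to WT per count total was 165, with an exact 95% interval of 56.0 to 802 that covers counting error only. It was called in DESeq2, and in edgeR when HET 4 was left out. Leaving out HET 4 removes the only HET library at 0 and lets the gene pass the filter, so that call adds no support. Without a filter, edgeR called 0 genes over the 8 libraries. The role of LOC100909505 is not annotated in the tables used, and it may share reads with a near-identical copy. In the authors' deposited table, Aqp4, AC128207.1 and Ntan1 have a false discovery rate of 0.203, and Sik1, Mpv17l and Tdrd5 one of 0.435.

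Libraries of the same genotype differed widely in genes of the straight proximal tubule and of the thick ascending limb. The summed level of 12 straight proximal tubule markers was 5546, 3636, 8864 and 7311 CPM in WT 1 to 4 and 4511, 4563, 7867 and 3711 CPM in HET 1, 2, 4 and 5. WT 2 and HET 5 were lowest, WT 3, HET 4 and WT 4 highest, and each genotype held libraries of either kind. The mitochondrial share of counts was 17.03% in WT 2 and 18.64% in HET 5, against 14.59%, 14.69% and 12.9% in WT 3, WT 4 and HET 4, and its part in the pattern was not tested. The summed level of 12 thick ascending limb markers was 3459, 2116, 6005 and 4697 CPM in WT and 3272, 2814, 4799 and 2685 CPM in HET. The order of the 8 libraries was the same for both lists except that HET 1 and HET 2 changed places. The ratio of straight to convoluted markers ran from 0.168 in WT 2 to 0.510 in WT 3 within WT, and from 0.193 in HET 5 to 0.400 in HET 4 within HET. In bulk tissue, fewer cells of a type and less RNA per cell cannot be told apart.

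**Figure D3:**
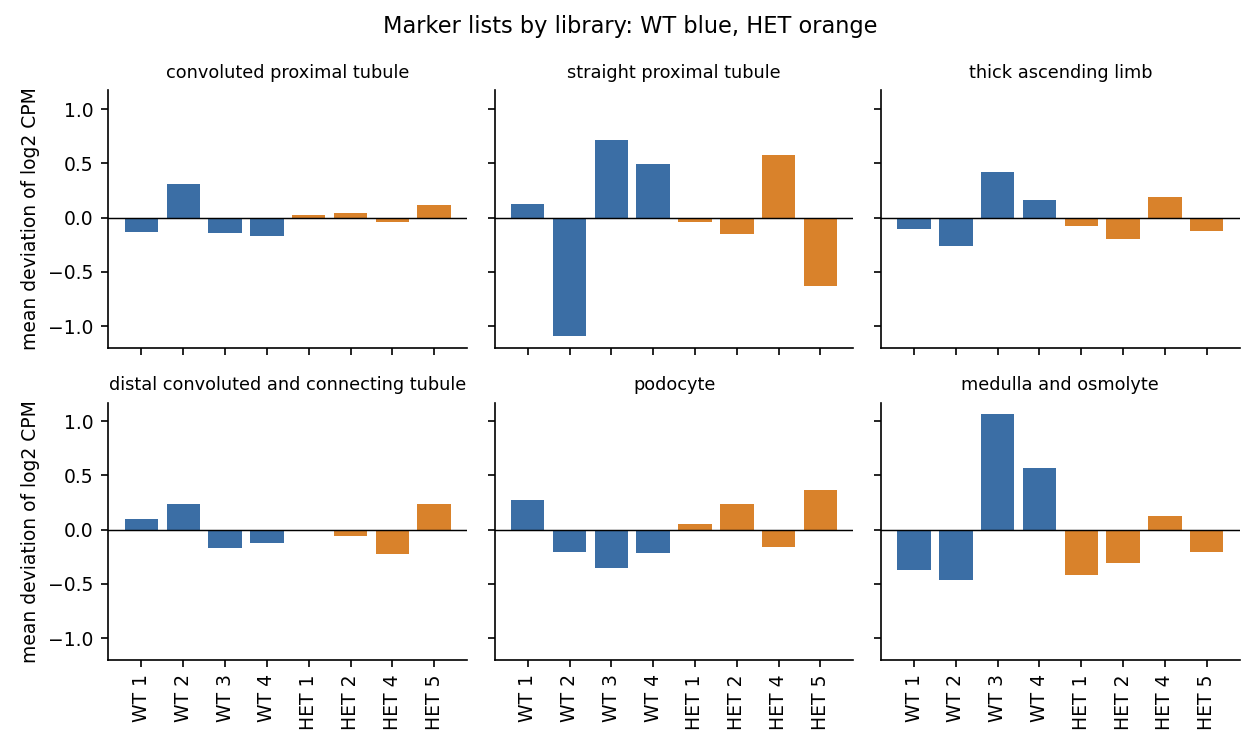
Mean deviation of log2 CPM from the mean of the 8 libraries (vertical axis) for 6 marker lists, with 1 bar per library (WT blue, HET orange). Straight proximal tubule bars are lowest in WT 2 and HET 5, thick ascending limb bars are lowest in WT 2, HET 2 and HET 5, both are high in WT 3, WT 4 and HET 4, and distal tubule bars are high in WT 2 and HET 5.

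Within the straight list, Slc7a13, which encodes an acidic amino acid and cystine transporter of the late straight segment, varied most. It stood at 1065, 35.0, 2576 and 1980 CPM in WT and at 484, 335, 1972 and 135 CPM in HET 1, 2, 4 and 5. The organic anion transporter gene Slc22a7 stood at 6.85, 0.402, 15.8 and 13.5 CPM in WT and at 4.66, 3.10, 13.0 and 0.853 CPM in HET. The angiotensinogen gene Agt stood at 32.5, 2.81, 45.6 and 37.1 CPM in WT and at 29.8, 16.6, 59.6 and 8.48 CPM in HET. These genes were lowest in WT 2 and next lowest in HET 5. The glycine transporter gene Slc6a18 ran from 157 CPM in WT 2 to 478 CPM in HET 4, and the glutathione-degrading enzyme gene Ggt1 from 236 CPM in HET 5 to 683 CPM in WT 3. Slc3a1, the heavy chain of the cystine transporters, ran from 1463 CPM in WT 2 to 3438 CPM in WT 3.

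Other members of the straight list varied little. The fatty acid transport gene Slc27a2 ran from 475 to 598 CPM, the acyl-CoA synthetase gene Acsm3 from 655 to 859 CPM and the steroid hydroxylase gene Cyp7b1 from 4.42 to 5.43 CPM over the 8 libraries. The glutamate transporter gene Slc1a1 ran from 315 to 402 CPM. Of the 12 members, 10 had a log2 fold change below 0 and 2 above, at a median of -0.11, and 0 were called. None had an unadjusted p under 0.05, and the smallest was 0.240.

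The same libraries stood out among the 15 genes with the largest spread after removal of the genotype means. Hnmt, which encodes the histamine-inactivating methyltransferase, stood at 143, 4.64, 366 and 239 CPM in WT and at 62.4, 43.3, 251 and 19.9 CPM in HET 1, 2, 4 and 5. The trefoil factor gene Tff3 stood at 297, 15.8, 694 and 461 CPM in WT and at 143, 118, 684 and 58.2 CPM in HET. Etnppl, which encodes a lyase of phosphoethanolamine, stood at 95.8, 4.57, 228 and 160 CPM in WT and at 47.2, 34.8, 167 and 15.3 CPM in HET. All had their lowest value in WT 2 and their next lowest in HET 5. Cacng5, a calcium channel gamma subunit gene, ran from 1.35 CPM in WT 2 to 126 CPM in HET 4, and the SCO-spondin gene Sspo from 0.292 CPM in WT 2 to 17.2 CPM in WT 4. Cyp1a1, a xenobiotic-metabolising cytochrome, stood at 14.4, 0.256, 53.5 and 41.8 CPM in WT and at 13.2, 1.03, 14.7 and 1.01 CPM in HET. It was near 1 CPM or below in WT 2, HET 2 and HET 5. Among 9566 genes whose log2 CPM averaged 3 or more, 80 had a residual SD over 1 on the log2 scale. Without WT 2, 9 of the 15 genes with the largest spread were shared.

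The first principal component of log2 CPM held 40.6% of the variance and followed these genes, with Slc7a13, Slc22a13, Hnmt and Tff3 among its strongest loadings. WT 2 (35.7) and HET 5 (30.5) lay at one end, and WT 3 (-33.0) and HET 4 (-27.7) at the other. Each genotype thus spanned nearly its whole range. The second held 16.1%, with HET 1 farthest out at -30.6.

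**Figure D4:**
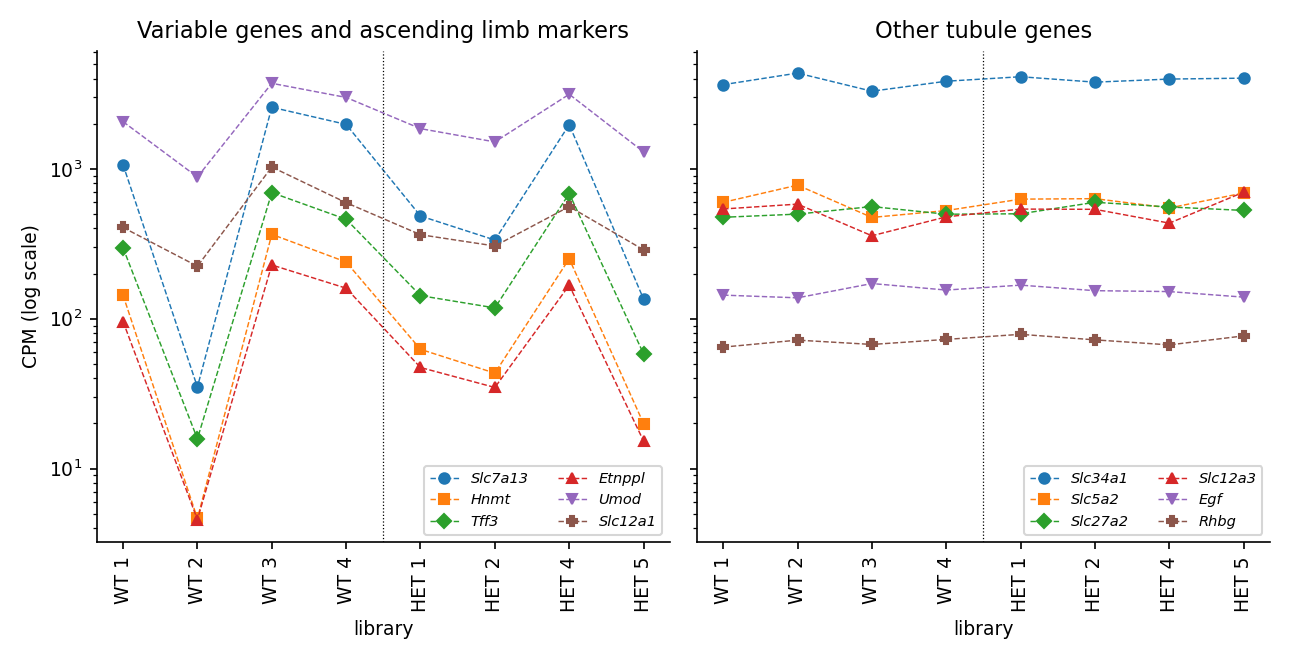
Level in CPM on a log axis (vertical) of 12 tubule genes in each of the 8 libraries, with dashed lines that only link the points of a gene. Slc7a13, Hnmt, Tff3 and Etnppl share their lowest value in WT 2 and a low value in HET 5, while Slc34a1, Slc27a2, Egf and Rhbg stay nearly level.

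The sequences before the start of 4 genes are shown because Xdh is the mutated gene, Acsm3 and Slc6a18 are the straight list genes that hold a motif of the proximal tubule, and Tff3 is among the most variable genes. They are the 250 bases before the RefSeq transcription start, 5′ to 3′ on the gene's strand, in build GRCr8. Capitals mark GTTAAT, the core of the site bound by HNF1 factors of the proximal tubule, or TATAAA, the TATA box, both searched on both strands. On the opposite strand GTTAAT reads ATTAAC. Xdh lies at chr6:27282069-27282318 on the plus strand, Acsm3 at chr1:183564402-183564651 on the plus strand, Slc6a18 at chr1:31436403-31436652 on the plus strand and Tff3 at chr20:9199334-9199583 on the minus strand.
Xdh: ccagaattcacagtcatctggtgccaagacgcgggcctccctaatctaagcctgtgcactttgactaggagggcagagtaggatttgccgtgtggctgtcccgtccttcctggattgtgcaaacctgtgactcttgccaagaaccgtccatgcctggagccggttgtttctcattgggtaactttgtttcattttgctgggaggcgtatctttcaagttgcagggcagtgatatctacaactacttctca
Acsm3: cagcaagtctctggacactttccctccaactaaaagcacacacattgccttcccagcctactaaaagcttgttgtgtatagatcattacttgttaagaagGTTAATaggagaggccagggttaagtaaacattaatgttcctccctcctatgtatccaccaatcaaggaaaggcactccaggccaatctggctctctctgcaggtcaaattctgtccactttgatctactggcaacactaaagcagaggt
Slc6a18: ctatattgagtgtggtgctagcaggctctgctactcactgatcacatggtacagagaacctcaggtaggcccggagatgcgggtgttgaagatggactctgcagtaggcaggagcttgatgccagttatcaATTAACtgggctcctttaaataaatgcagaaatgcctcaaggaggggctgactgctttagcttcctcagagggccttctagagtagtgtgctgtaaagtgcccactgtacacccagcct
Tff3: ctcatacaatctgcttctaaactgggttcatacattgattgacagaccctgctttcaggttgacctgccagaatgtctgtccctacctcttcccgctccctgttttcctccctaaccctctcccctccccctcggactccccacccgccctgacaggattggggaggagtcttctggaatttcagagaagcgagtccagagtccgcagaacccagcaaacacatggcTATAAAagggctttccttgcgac
GTTAAT starts 150 bases before the start in Acsm3 and its opposite-strand form 119 bases before it in Slc6a18, and TATAAA starts 23 bases before it in Tff3. Neither run of letters is in the window of Xdh. Over all 33469 promoters of the table, 6.45% hold GTTAAT and 12.9% hold TATAAA. Of 8 promoters matched to the 12 genes of the straight list, 2 hold GTTAAT and 1 holds TATAAA. Of 10 promoters matched to 8 of the 15 most variable genes, 3 hold GTTAAT and 1 holds TATAAA. Between the straight list genes with GTTAAT, Slc6a18 ran from 157 to 478 CPM over the 8 libraries and Acsm3 from 655 to 859 CPM. A match is a description of letters and not of a bound site.

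In the thick ascending limb, the gene of uromodulin, Umod, stood at 2064, 882, 3723 and 2996 CPM in WT and at 1855, 1513, 3146 and 1298 CPM in HET 1, 2, 4 and 5. The sodium potassium chloride cotransporter gene Slc12a1 stood at 406, 224, 1028 and 595 CPM in WT and at 364, 306, 560 and 288 CPM in HET. Both were lowest in WT 2 and highest in WT 3. The magnesium pathway claudin genes Cldn16 and Cldn19 ran from 35.1 CPM in WT 2 to 77.3 CPM in WT 3, and from 9.91 to 28.3 CPM in the same libraries. The epidermal growth factor gene Egf (138 to 172 CPM) and the barttin gene Bsnd (66.1 to 78.6 CPM) varied little. The list had 8 of 12 members with HET lower, a median of -0.11 and 0 called.

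The distal convoluted and connecting tubule ran in the other direction across libraries. Its 9 tested markers summed to 2933, 3707, 2334 and 2394 CPM in WT and to 2765, 2760, 2296 and 3676 CPM in HET 1, 2, 4 and 5. WT 2 and HET 5, lowest in straight tubule markers, were highest here. The thiazide-sensitive cotransporter gene Slc12a3 ran from 358 CPM in WT 3 to 699 CPM in HET 5, and the calcium-binding calbindin gene Calb1 from 482 CPM in HET 4 to 1189 CPM in WT 2. The kallikrein Klk1, of a family with near-identical copies, ran from 478 to 772 CPM. The list median was 0.04, with 5 of 9 members higher and 0 called.

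Convoluted proximal tubule markers varied less between libraries than the straight list did. Their sum ran from 16500 CPM in WT 4 to 21690 CPM in WT 2 in WT, and from 17920 to 19670 CPM in HET. The log2 range of the list over the 8 libraries was 0.476, and 0.284 without WT 2. The phosphate transporter gene Slc34a1 stood at 3645, 4357, 3297 and 3844 CPM in WT and at 4118, 3789, 3974 and 4030 CPM in HET 1, 2, 4 and 5. The glucose transporter gene Slc5a2 stood at 474 to 779 CPM in WT and at 548 to 690 CPM in HET. The genotypes overlapped for both genes. Of 13 members, 12 had a log2 fold change above 0, the median was 0.07, the largest 0.24 (the organic anion transporter Slc22a6, unadjusted p = 0.0824), and 0 were called.

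In the collecting duct, 9 of 10 principal cell markers had HET lower, at a median of -0.08, with Aqp4 the sole member with an unadjusted p under 0.05. The vasopressin-regulated water channel gene Aqp2 ran from 166 to 204 CPM in WT and from 124 to 244 CPM in HET, and Aqp3 from 143 to 192 and from 130 to 215 CPM. Among 10 intercalated cell markers, 7 were higher, at a median of 0.05. Foxi1, the transcription factor of these cells, stood at 27.2, 33.6, 23.9 and 28.4 CPM in WT and at 29.99, 44.3, 32.6 and 39.4 CPM in HET 1, 2, 4 and 5. WT 2 lay above HET 1 and HET 4 (0.37 ± 0.14, unadjusted p = 0.0231). The proton pump subunit genes Atp6v1b1 and Atp6v0d2 were at 0.04 ± 0.10 and 0.07 ± 0.10.

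Markers of the medulla and of osmolyte handling were highest in WT 3. Their sum was 268, 218, 472 and 349 CPM in WT and 203, 213, 381 and 268 CPM in HET, and the list median was -0.51, with 6 of 8 tested members lower and 0 called. The borate and proton transporter gene Slc4a11 stood at 1.501, 1.86, 8.19 and 3.63 CPM in WT and at 1.58 to 2.04 CPM in HET. The taurine transporter gene Slc6a6 reached 102 CPM in WT 3 against 42.5 to 69.2 CPM in the other libraries. The urea transporter gene Slc14a2, below the filter, had 1, 3, 47 and 6 raw counts in WT and 0, 0, 1 and 1 in HET. The sum was highest in WT 3, HET 4 and WT 4, the libraries highest in straight tubule markers, and the part of that difference in the list median was not tested.

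Podocytes are the filtering cells of the glomerulus. Of 12 markers, 11 had a log2 fold change above 0, the median was 0.23, 3 had an unadjusted p under 0.05 and 0 were called. The transcription factor gene Wt1 stood at 13.4, 9.54, 9.12 and 10.9 CPM in WT and at 14.3, 15.2, 11.04 and 17.0 CPM in HET 1, 2, 4 and 5 (0.42 ± 0.16, unadjusted p = 0.0230). The actin-binding synaptopodin gene Synpo stood at 39.5, 27.9, 23.0 and 26.5 CPM in WT and at 33.5, 42.8, 33.6 and 45.3 CPM in HET (0.41 ± 0.17), and nephrin, Nphs1, was at 0.35 ± 0.16. WT 1 overlapped the HET libraries for each. The summed level was 853, 643, 531 and 612 CPM in WT and 724, 855, 619 and 961 CPM in HET. With the straight tubule level as a covariate, a fit added after the data were seen, the median was 0.18 and 2 of 12 markers had an unadjusted p under 0.05.

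Of 11 endothelial markers 10 were higher, at a median of 0.06, with the cadherin gene Cdh5 at 0.04 ± 0.16 and the receptor gene Kdr at 0.16 ± 0.23. Smooth muscle, pericyte and juxtaglomerular cell markers were lower in 8 of 10 cases, at a median of -0.07. Fibroblast and matrix markers were lower in 9 of 11 cases, at a median of -0.13, with the collagen gene Col1a1 at -0.23 ± 0.20 and decorin, Dcn, at -0.22 ± 0.16. None of these lists had a member with an unadjusted p under 0.05.

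No tested immune cell marker had an unadjusted p under 0.05. Of 9 macrophage markers 7 were higher, at a median of 0.06, and the receptor gene Csf1r stood at 48.6, 36.2, 26.9 and 38.7 CPM in WT and at 35.8 to 39.6 CPM in HET. T and natural killer cell markers had a median of 0.14 (8 of 10 higher), with the T cell receptor complex gene Cd3e at 0.495 to 1.06 CPM in WT and at 0.420 to 0.800 CPM in HET. For B and plasma cells and for neutrophils and mast cells, 3 members of each list passed the filter. The calgranulin gene S100a9 stood at 0.439 to 1.17 CPM in WT and at 0.480 to 1.79 CPM in HET. Some markers under the filter were uneven, with raw counts in HET 1 of 68 for the scavenger receptor gene Cd163 and of 32 and 22 for the mast cell protease genes Cpa3 and Cma1, against at most 4, 8 and 2 in any other library.

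In purine breakdown and salvage, Xdh was the sole gene of 15 tested with an unadjusted p under 0.05, and the list median was 0.0026. Nt5c, a nucleotidase, was at -0.14 ± 0.11 and Impdh2, of guanine nucleotide synthesis, at 0.06 ± 0.06. The salvage enzyme gene Aprt ran from 70.03 to 85.6 CPM in WT and from 70.7 to 87.3 CPM in HET. Adenosine kinase, Adk, ran from 164 to 186 and from 168 to 183 CPM. The guanine deaminase gene Gda, whose product forms xanthine, ran from 7.57 to 9.05 CPM in WT and from 7.72 to 9.79 CPM in HET. The aldehyde oxidase gene Aox1, of the same enzyme family as Xdh, stood at 20.1, 11.7, 8.26 and 14.1 CPM in WT and at 17.2, 14.1, 9.86 and 12.7 CPM in HET. The genotypes overlapped for each of these genes. Hprt1 is listed at 0 counts in all 8 libraries. That value can come from the annotation or from how reads were assigned, so it does not show that the gene is silent. Uricase, Uox, had 0 to 5 counts per library, with 3, 5 and 3 in WT 2, WT 4 and HET 1, the libraries with liver genes described below. The 6 tested genes of the molybdenum cofactor that the enzyme carries had log2 fold changes from -0.04 to 0.09.

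Urate and organic anion transport genes showed no shared direction, with 5 of 9 higher at a median of 0.04 and 0 called. The urate exchanger gene Slc22a12 stood at 411, 244, 509 and 435 CPM in WT and at 345, 371, 602 and 261 CPM in HET 1, 2, 4 and 5. It was low in WT 2 and HET 5, the libraries low in straight tubule genes. The urate transporter gene Slc2a9 ran from 25.8 to 30.4 CPM in WT and from 26.7 to 31.6 CPM in HET. The efflux pump gene Abcg2 was at -0.10 ± 0.11 and the scaffold gene Pdzk1 at 0.08 ± 0.09.

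Markers of tubular injury did not separate the genotypes as a group. Lcn2, the gene of a secreted injury protein, stood at 3.71, 2.19, 3.83 and 4.48 CPM in WT and at 3.64, 3.23, 2.85 and 4.37 CPM in HET 1, 2, 4 and 5. Havcr1, the kidney injury molecule gene, stood at 4.36 to 9.12 CPM in WT and at 5.01 to 11.1 CPM in HET. The groups overlapped for both. The chaperone clusterin, Clu, stood at 73.9, 61.4, 72.5 and 66.6 CPM in WT and at 81.1, 75.6, 81.0 and 86.6 CPM in HET. Every HET value lay above every WT value, at a log2 fold change of 0.24 ± 0.08 (unadjusted p = 0.00959). Osteopontin, Spp1, reached 696 CPM in WT 3 against 324 to 461 CPM in the others. Of 15 tested members 12 were lower, at a median of -0.06, and 0 were called. This list shares Tff3 with the straight tubule pattern.

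Other gene groups gave small shifts. All 16 tested interferon response genes had HET lower, from -0.25 to -0.06 with a median of -0.13, and all 13 tested cholesterol synthesis genes had HET lower, at a median of -0.14. None of these 29 had an unadjusted p under 0.05, and members of a list are not independent of each other. Interferon genes summed to 507.8, 421.1, 379.8 and 442.9 CPM in WT and to 395.5, 405.5, 367.8 and 440.7 CPM in HET 1, 2, 4 and 5. Cholesterol synthesis genes summed to 630, 694.5, 752.5 and 878.9 CPM in WT and to 778.5, 589.2, 701.9 and 577.6 CPM in HET. Both sums overlapped between genotypes. The interferon regulator Irf7 stood at 39.9, 29.2, 23.3 and 29.2 CPM in WT and at 20.8, 29.4, 23.9 and 28.5 CPM in HET 1, 2, 4 and 5. The squalene epoxidase gene Sqle stood at 21.8, 19.0, 29.5 and 32.2 CPM in WT and at 24.9, 16.9, 21.4 and 15.997 CPM in HET. The genotypes overlapped for both. In the antioxidant list, Gpx1, a glutathione peroxidase, stood at 688, 720, 626 and 741 CPM in WT and at 845, 872, 755 and 794 CPM in HET. Its groups did not overlap (0.24 ± 0.08, unadjusted p = 0.0171), and the list median was -0.01.

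The remaining metabolic and hormonal lists had medians near 0. Nuclear genes of the respiratory chain had a median of 0.01 (12 of 20 higher), with Cox5b, a subunit of cytochrome oxidase, at 0.17 ± 0.08. Amino acid and gluconeogenic genes had a median of 0.05, with the bisphosphatase Fbp1 at 0.15 ± 0.09. Genes of the angiotensin and aldosterone system had a median of -0.04, and the peptidase gene Mme was lowest in WT 2 (69.8 CPM) and next lowest in HET 5 (99.98 CPM). Vitamin D, calcium and phosphate genes had a median of -0.04, cell cycle genes of -0.08 and heat shock and cold response genes of -0.04. In all, 36 lists held 419 genes, of which 359 were tested, 0 were called by edgeR, DESeq2 or limma voom and 10 (2.79%, against 1.86% of all genes) had an unadjusted p under 0.05. They included Xdh, Aqp4, Foxi1, Wt1, Synpo, Clu, Gpx1, Tef and Ier2.

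Genes of tissues other than the tubule varied by library. Most genes of the fat list stood out in HET 1. The summed level of the list was 4475 CPM in HET 1 and 4533 CPM in HET 2, since it holds Pck1, a gluconeogenic gene also of the tubule, at 3997 and 4510 CPM in these libraries. The fatty acid binding protein gene Fabp4 had 235 CPM in HET 1 and 6.58 to 11.03 CPM in the other 7 libraries, adiponectin, Adipoq, had 65.7 CPM against 3.36 to 6.14 CPM, and adipsin, Cfd, had 30.1 CPM against 0.190 to 0.877 CPM. Raw counts in HET 1 were 1077 for the lipid droplet gene Plin1, 1208 for the brown fat uncoupling gene Ucp1 and 435 for resistin, Retn, against at most 16, 11 and 1 in any other library. The carbonic anhydrase gene Ca3 (177 CPM) and the lipogenic regulator Thrsp (95.7 CPM) were also high in HET 1. The fat list had a median log2 fold change of 2.33 over 6 tested members with 0 called, and of -0.27 without HET 1. HET 1 also held 317 counts of the myeloperoxidase gene Mpo, which had 0 in the 7 others, and 223 counts of the steroidogenic gene Star against at most 15.

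Haemoglobin and other red cell genes were high in WT 4 and HET 1. The beta globin gene Hbb stood at 31.4, 71.5, 57.6 and 555 CPM in WT and at 376, 64.5, 70.4 and 30.4 CPM in HET 1, 2, 4 and 5. Alas2, the heme synthesis enzyme of red cell precursors, had 13.0 CPM in WT 4 and 9.73 CPM in HET 1 against 0.628 to 2.41 CPM elsewhere. The lipoxygenase gene Alox15 stood at 11.1 and 12.9 CPM in these libraries and at 0.693 to 1.94 CPM in the others. Globin genes have near-identical copies, so their counts are uncertain one by one. Albumin, Alb, a liver product, had 15.501, 26.8 and 24.2 CPM in WT 2, WT 4 and HET 1 and at most 0.840 CPM elsewhere. Raw counts of the liver genes Serpina1 and Ttr followed, at 53 and 31 in WT 2, 103 and 86 in WT 4 and 75 and 62 in HET 1, against at most 3 elsewhere. Urothelial genes were highest in WT 3 and WT 4, where Upk3a had 52 and 42 counts against 8 in WT 2 and 0 in the other 5 libraries.

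**Figure D5:**
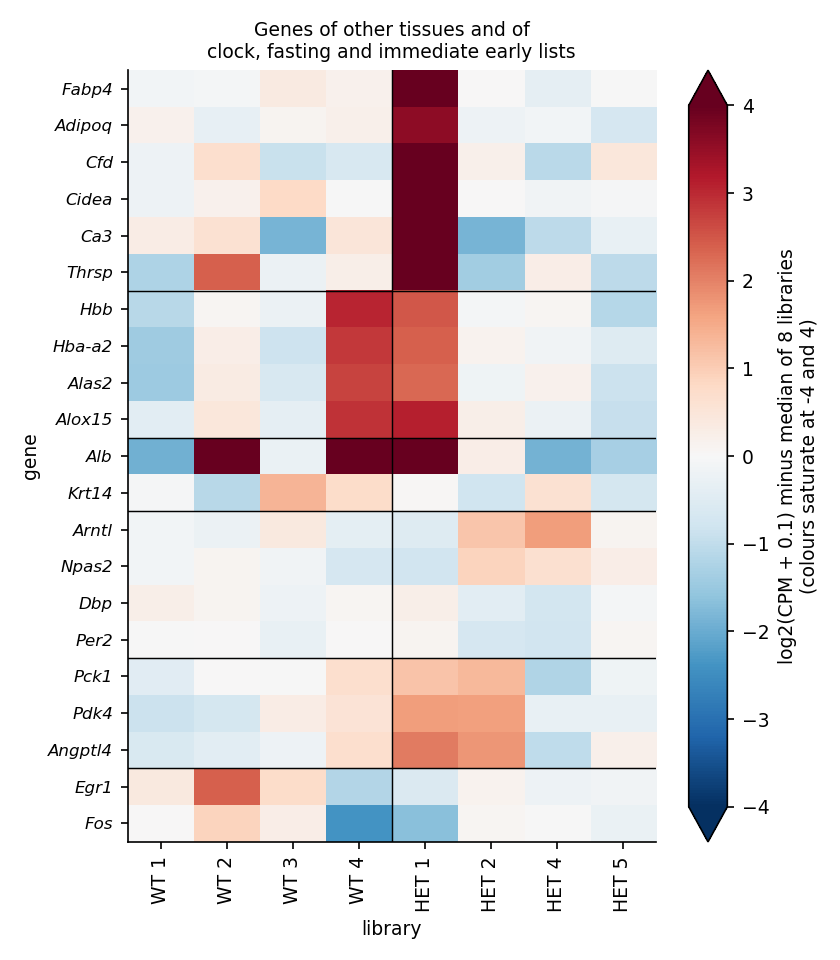
Log2 of CPM + 0.1 minus the median of the 8 libraries (colour) for 21 genes (vertical axis) in each library (horizontal axis), with lines between groups of genes. Fat genes are high in HET 1, red cell genes in WT 4 and HET 1, Arntl in HET 2 and HET 4, and Pck1, Pdk4 and Angptl4 in HET 1 and HET 2.

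Genes of the circadian clock differed between libraries. The clock activator Arntl stood at 5.21, 4.72, 7.43 and 4.26 CPM in WT and at 3.91, 12.3, 17.9 and 6.03 CPM in HET 1, 2, 4 and 5. HET 2 and HET 4 were high and the other HET libraries lay within the WT spread or just below it. The clock output gene Dbp was lowest in the same pair, at 95.1 and 75.4 CPM against 110.4 to 148 CPM in the others, and the repressor gene Per2 stood at 41.4 and 38.5 CPM against 52.8 to 71.0 CPM. Tef, an output gene, had a log2 fold change of -0.36 ± 0.14 (unadjusted p = 0.03004), with 124 and 109 CPM in HET 2 and HET 4. The list median was -0.15 (15 of 20 lower), with 0 called, and -0.27 without HET 1. No label gives the time of tissue collection.

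Some fasting genes were high in HET 1 and HET 2, among them Pck1 and Pdk4, which were chosen after their values were seen. The gluconeogenic gene Pck1 stood at 1325, 1859, 1786 and 2900.2 CPM in WT and at 3997, 4510, 786 and 1617 CPM in HET 1, 2, 4 and 5. HET 4 lay below every WT library. The pyruvate dehydrogenase kinase gene Pdk4 stood at 4.69, 5.15, 10.4 and 12.4 CPM in WT and at 27.6, 27.0, 6.96 and 6.88 CPM in HET. Fkbp5 and Sgk1, glucocorticoid-induced genes of the list, ran otherwise and also differed from each other. Fkbp5, an immunophilin gene, stood at 43.8, 72.7, 94.4 and 37.04 CPM in WT and at 58.5, 36.2, 23.6 and 35.99 CPM in HET, highest in WT 3 and WT 2. The kinase gene Sgk1 stood at 184.2, 184.3, 127 and 141 CPM in WT and at 164, 255, 149.8 and 451 CPM in HET, highest in HET 5. Of 14 members 11 were higher, at a median of 0.18, with 0 called. Immediate early genes were highest in WT 2, where the list summed to 739 CPM against 225 to 428 CPM in the others and Egr1 reached 93.4 CPM against 7.83 to 29.7 CPM. That list had a median of -0.18 (10 of 14 lower), and Ier2 (-0.30 ± 0.13, unadjusted p = 0.0412) was its sole member past the unadjusted level.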

How the data were processed

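Raw counts per gene, keyed by Ensembl identifier, were deposited by the authors. Build Rnor_6.0 and edgeR 3.8.6 are named, with no role, in the submitters' processing notes. The aligner, annotation and strand setting are not given in the sources, and the labels describe a stranded kit. Near-identical and overlapping genes may share reads. The authors also deposited RPKM values, which were not used, and a table with log2 fold changes, p-values and a call score for this comparison, printed only as theirs. Its counts differed from the count table in 0 values.

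Genes were kept by filterByExpr (minimum count 10, total 15), scaled by TMM and tested in edgeR 4.0.16 (R 4.3.3) by the robust quasi-likelihood F-test over the 8 libraries, with Benjamini-Hochberg adjustment at 0.05. Unadjusted p-values are from that fit. Lists were described by counts and medians. The members, lists and tests were chosen with earlier results of these data known. Named genes were Xdh, the 10 smallest p-values in each direction (named symbols, log2 CPM averaging 1 or more), 3 members per list, the 15 largest residual SDs (log2 CPM with a prior count of 2, at least 3 on average) and the first 2 markers of each list. Others, including liver genes and the genes near Ntan1, were chosen after their values were seen. The symbols of 21 list entries were not matched. Not every gene named by that rule is printed. No pair of libraries of 1 genotype agreed within counting noise (chi-square per degree of freedom 19.8 to 94.9). The code was tested on simulated data. DESeq2 1.42.0, limma voom (limma 3.58.1), other scalings and filters, the 12-library fit and left-out libraries were alternatives. Depth limits genes with few counts, and intervals cover counting error only.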

Additional observations from a re-analysis of the deposited data

Results flagged for a closer look

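In 146 groups of 4 libraries, 18 held a library far from the others relative to the group's range. Chance gives about 1 in 20 for groups not chosen by their values, a rate that cannot be read against these, since the most variable genes were picked for a large spread and other genes for a small p. Among the WT libraries alone, WT 2 had the highest mitochondrial share (17.03%), the highest summed level of antioxidant genes (35280 CPM), the highest Thrsp (2.157 CPM) and the lowest Tmsb4x (412.9 CPM). The antioxidant sum weights abundant members most. The mean deviation of log2 CPM of that list was instead lowest in WT 2, at -0.3446 against 0.013, 0.2694 and 0.1577 in WT 1, 3 and 4. The other single WT values apart were Ntan1 in WT 3 (17.14 CPM), Tdrd5 in WT 1 (11.93 CPM) and red blood cell genes in WT 4 (724.9 CPM summed).

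In HET 1, apart from the other HET libraries, were red blood cell genes (501.1 CPM summed), the sum of the skeletal muscle list (2.948 CPM), Alb (24.2 CPM), Thrsp (95.75 CPM) and Ca3 (176.9 CPM). In the muscle list, the myoglobin gene Mb had 57 raw counts in HET 1 and 0 in HET 2, 4 and 5. Its tested members did not stand apart in HET 1. Tnnt3 stood at 0.616, 0.291, 0.304 and 0.587 CPM and Mylpf at 0.563, 0.711, 0.913 and 0.587 CPM in HET 1, 2, 4 and 5. In HET 4 the genes apart were also low in WT 2 and HET 5, with Tff3 at 684.4 CPM, Cacng5 at 126.3 CPM, LOC361914 at 147.5 CPM, AABR07001025.1 at 51.98 CPM and Olr1668 at 23.21 CPM. HET 5 held 438.3 CPM of AABR07015055.2, which was at 0.258 to 1.46 CPM in the other 7 libraries.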

How the results depend on the processing

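Of 1360 recomputed values, 1338 were scored as unchanged, 20 moved further, 2 became called and 0 reversed. Unchanged meant the same direction and side of the threshold for genes, and a move under the replicate spread for list medians and ranges. Counts were scored as unchanged when equal or within a set ratio, as were 402 genes at an unadjusted p of 0.05 against 273. The count of called genes was 0 in the comparison as reported and 1 under DESeq2 (LOC100909505). Leaving out single libraries gave 0 to 1, with Ntan1 called without WT replicate 3 and LOC100909505 without HET replicate 4. With the replicate number as a block 1 gene was called (Ntan1, log2 fold change 1.098, edgeR adjusted p = 0.04299); same-numbered libraries correlated at 0.0361, 0.242 and 0.220 in their deviations, so the numbers were not taken to pair the samples. In the fit of all 12 libraries Xdh had an unadjusted p of 0.108, and with the straight tubule level as a covariate it had the smallest p (1.54e-05, edgeR adjusted p = 0.226).

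The genes at an unadjusted p of 0.05 numbered 461 without a filter, 402 with the block, 442 with the covariate, and from 196 (without WT replicate 3) to 633 (without WT replicate 2) without single libraries. Without WT replicate 2 and HET replicate 1, added after the data were seen, they numbered 791. The log2 range of convoluted tubule markers between libraries was 0.476, 0.284 (without WT replicate 2) to 0.478 when single libraries were left out, and 0.278 without WT replicate 2 and HET replicate 1. Of the 15 most variable genes, 9 were shared without WT replicate 2 and 7 without both. Without HET replicate 1 the clock median was -0.27. The cause of these differences was not tested. Depth limits the precision of genes with few counts, and most urothelial genes lay under the count filter of the reported comparison and were given as counts.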

Other observations

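Some genes were near 0 in some libraries and high in others of the same genotype. Over tested genes, 41 had a gap of at least 2 in log2(CPM + 0.1) between neighbouring libraries with at least 3 CPM in the highest. Of these, 14 were high in HET 1 alone, 7 in WT 4 and HET 1, 5 in all libraries but WT 2, and 3 in HET 5 alone. The 5 low in WT 2 were Hnmt, Cacng5, Sspo, the organic anion transporter Slco1a1 (5.37 CPM against 26.0 to 180 CPM) and the sulphonylurea receptor Abcc8 (0.0366 CPM against 0.800 to 3.31 CPM).

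A gene annotated as the ribosomal protein gene Rps9 stood at 1.39, 29.0, 2.18 and 29.1 CPM in WT and at 1.85, 24.6, 0.951 and 26.4 CPM in HET 1, 2, 4 and 5, with 2 libraries of each genotype high and 2 low. Ribosomal protein genes have many near-identical copies, so the count is uncertain. LOC108348190 stood at 5.07 CPM in HET 1 and at 66.1 to 80.1 CPM in the other 7 libraries. The metastasis suppressor gene Brms1 stood at 0.737, 4.68, 5.12 and 3.58 CPM in WT and at 0.375, 4.78, 3.96 and 0.587 CPM in HET. The major histocompatibility gene RT1-N2, of a family with near-identical copies, ran from 0 CPM in HET 5 to 5.88 CPM in WT 3.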
